A study of Homo sapiens with 12 samples.

Results

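The 43 genes described here encode the machinery of the mitotic spindle and of the passage from G2 into and through mitosis. They were chosen by name, as the rows of both count tables whose gene symbol is one of a list of 43, out of 31316 genes found in either table, and all 43 were present in both tables and passed the filter on low counts. RNA was measured in KBM7 and K562, established cell lines derived from chronic myelogenous leukemia, in which siRNAs pooled against USP15, a deubiquitinase, had been transfected (siUSP15), while control cells (siCtrl) received a non-targeting pool of siRNAs. Cells were lysed for total RNA 72 h later. KBM7 had 2 siCtrl and 2 siUSP15 libraries, and K562 had 4 of each. The K562 libraries fell into 2 sets of 4, as the numbers in their library names do: set 1 holds replicates 1 and 2 of each siRNA, set 2 holds replicates 3 and 4, and what separates the sets is not given in the sources used here. The authors labelled their deposited K562 results as batch corrected, and that label does not say what the batch was. A knockdown by a pool of siRNAs lowers a transcript without removing it, and each cell line is a single line in culture.

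In the cell cycle, these genes are transcribed late. In resting and early cycling cells the DREAM complex, a repressor assembled on MuvB, holds them off, and in S and G2 phase B-MYB and FOXM1 join MuvB and turn them on. MuvB contacts DNA at the CHR element, a short sequence near the transcription start, and NF-Y binds CCAAT boxes in the same promoters. Their products then build the spindle: kinesins slide and depolymerise microtubules, the kinetochore holds chromosomes to them, the checkpoint delays anaphase until every chromosome is attached, and CDK1 with B-type cyclins drives the whole process until the anaphase-promoting complex (APC/C) ends it. The question of the comparison, whether mitotic transcripts move when USP15 is lowered, follows from the interest of the study in genome maintenance after loss of USP15.

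The CHR element is what many of these promoters share, although the choice of genes did not use it. RefSeq promoters (GRCh38.p14, 250 bases before to 50 bases after the start) were found for 38 of 43 genes in 42 windows, and AURKA, BIRC5, TPX2, TTK and UBE2C had no entry. The CHR hexamer TTTGAA, on either strand, was in 30 of 42 windows (71.4%), against 15.2% of 35116 windows of all genes. Among the genes with an entry, KIF2C, KIF20A, CENPE, SPC24, BUB1, AURKB, CCNB1, CCNA2, PTTG1 and CKAP2 had no window with it. Windows of some genes described below that hold the hexamer are shown next, 30 bases each in the direction of the gene. They were picked for holding it. Capitals mark the copy of the hexamer, or its reverse complement, whose middle lies nearest the start.
PLK1: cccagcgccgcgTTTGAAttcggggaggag
CCNB2: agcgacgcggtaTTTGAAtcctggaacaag
CDK1: tagcgcggtgagTTTGAAactgctcgcact
CDC20: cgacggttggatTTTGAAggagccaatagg
NDC80: ccggcggagaatTTCAAAttcgaacggctt
NUF2: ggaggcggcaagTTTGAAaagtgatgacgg
BUB1B: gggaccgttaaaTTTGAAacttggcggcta
HMMR: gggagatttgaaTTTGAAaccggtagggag
DLGAP5: cggtgcggcaagTTTGAAtttcgtggaggc

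These windows lie on the plus strand at chr16:23678848-23678877 for PLK1, chr15:59105105-59105134 for CCNB2, chr10:60778453-60778482 for CDK1, chr1:43358904-43358933 for CDC20, chr18:2571542-2571571 for NDC80, chr1:163321958-163321987 for NUF2, chr15:40161034-40161063 for BUB1B and chr5:163460598-163460627 for HMMR, and on the minus strand at chr14:55191565-55191594 for DLGAP5. The hexamer began 29 bases before the RefSeq start in PLK1 and CCNB2, 13 bases before it in CDK1, and 65 bases before it in CDC20. In the 25 bases just before the start, 23.8% of the member windows held the hexamer, against 1.17% of all windows. The variant TTTAAA was in 15 of 42 windows (35.7%, against 12.2%), among them those of KIF2C, KIF20A, CENPE, CCNB1 and PTTG1, which held no TTTGAA. The pentamer CCAAT, on either strand, was in 33 of 42 windows (78.6%, against 34.6%), and it was most frequent 75 to 50 bases before the start, where 52.4% of the member windows and 7.62% of all windows held it. Both TTTGAA and CCAAT were present in 24 of 42 windows (57.1%, against 5.90%). GGCGG, on either strand, was in 42 of 42 windows, against 59.0% of all windows. These are matches of letters, which do not show binding.

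**Figure D1:**
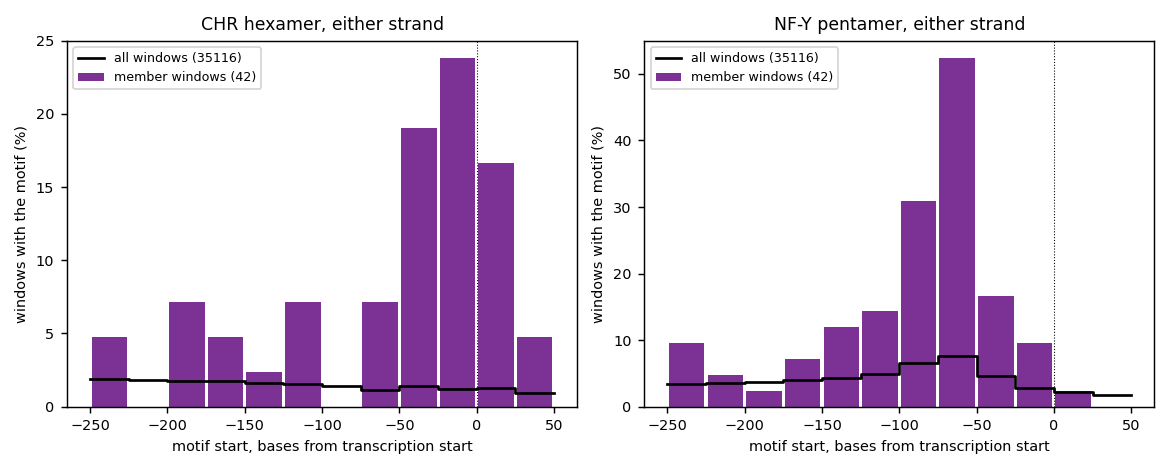
Share of promoter windows in which the CHR hexamer (left) or the NF-Y pentamer (right) starts in each bin of 25 bases, by distance from the transcription start in bases; bars are the 42 windows of the mitotic genes and the line is all 35116 windows. The CHR hexamer was most frequent in the 25 bases before the start (23.8% against 1.17%) and the pentamer 75 to 50 bases before it (52.4% against 7.62%).

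USP15 (ENSG00000135655, hg38 chr12:62260338-62417431) was lower in every siUSP15 library. Its level, as TMM-scaled CPM (the count relative to the library total), was 210 and 216 in the siCtrl libraries of KBM7 and 113 and 114 with siUSP15. In K562 set 1 it was 269 and 275 against 116 and 134, and in set 2 it was 343 and 330 against 191 and 197. The siUSP15 level was thus 53.4%, 46.1% and 57.6% of siCtrl, and the log2 fold change from edgeR's quasi-likelihood test was -0.91 ± 0.04 (SE; adjusted p = 1.58e-07), -1.12 ± 0.05 (adjusted p = 1.43e-09) and -0.79 ± 0.05 (adjusted p = 1.25e-06). The reduction was larger in set 1 than in set 2 (difference -0.32 ± 0.08, adjusted p = 0.0128), a difference that was lost when replicate 1, 2 or 4 of siCtrl was left out (adjusted p up to 0.0615).

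Total counts were 23020401 to 43566543 per library. The first principal component held 64.5% of the variance in K562 and separated the sets, and mitochondrial genes took 4.83 to 5.43% of the counts in set 1, 3.20 to 3.27% in set 2 and 2.06 to 2.67% in KBM7. Of the 11 erythroid markers, 6 of the 7 tested fell in KBM7 with siUSP15, where their summed level went from 111 to 132 CPM down to 30.5 to 38.8 CPM, whereas in K562 all 11 were tested, 7 rose and 1 fell in set 1 (sums 3390 to 3503 CPM with siCtrl and 3365 to 3852 CPM with siUSP15), and 0 rose and 2 fell in set 2 (3982 to 4033 and 3409 to 3819 CPM). None of the 11 was at 0 in all libraries of a group. Of all genes tested, 13.2% rose and 15.8% fell in KBM7, 18% and 18.7% in set 1, and 1.19% and 1.25% in set 2. Of the 10 granulocyte and monocyte markers, 4 rose and 1 fell of 6 tested in KBM7 (sums 118 to 122 CPM with siCtrl and 128 to 129.9 CPM with siUSP15), and in set 1, where 0 rose and 2 fell of 3 tested, the sum was 42.7 to 44.4 CPM with siCtrl and 24.7 to 29.3 CPM with siUSP15. Megakaryocyte markers summed to 65.2 to 76.2 CPM in KBM7 siCtrl and 47.5 to 50.9 CPM in siUSP15, and to at most 10.2 CPM in K562. Lymphocyte markers summed to at most 26.3 CPM and stromal markers to at most 7.03 CPM in any library. In bulk RNA, a shift in the share of cells in G2 and mitosis and a shift in RNA per cell cannot be told apart, and the part of the changes in differentiation markers in the results below was not tested.

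The mitotic genes were well covered. Leaving UBE2C aside, the lowest and highest counts were 555 and 26886 in KBM7 and 581 and 27698 in K562, and their median level was 120 CPM in KBM7 and 119 CPM in K562, against 25.1 CPM for all genes tested in either line. Per kilobase of exon, TOP2A, the topoisomerase that untangles chromosomes, was highest with 141 CPM per kb in KBM7 siCtrl and 110 CPM per kb in K562 set 1 siCtrl, followed by CCNB1 and TPX2 in KBM7 and by TPX2 and CCNB1 in K562 set 1. UBE2C, the E2 enzyme of the APC/C, was lowest at 1.18 and 0.228 CPM per kb. It had 30 to 51 counts per library in KBM7 and 6 to 36 in K562. The reason for these low counts was not found, and whether they reflect the level of its RNA was not tested. Another annotated gene overlaps the locus of 25 of the 43, and whether the counting used strand is not given in the sources used here, so reads of such neighbours may enter some values. Together the 43 genes took 0.665% and 0.650% of the counts in KBM7 siCtrl and 0.683% and 0.692% in siUSP15, 0.616% and 0.626% against 0.597% and 0.590% in set 1, and 0.660% and 0.651% against 0.623% and 0.621% in set 2.

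Counts of mitotic genes called were read against those of all genes. Neither counts nor sizes of change were matched for level. The median level was higher in the mitotic genes (120 CPM in KBM7 and 119 CPM in K562, against 25.1 CPM in either line). In KBM7, 8 of 43 mitotic genes rose (18.6%, against 13.2% of all genes tested) and 2 fell (4.65%, against 15.8%), and the median log2 fold change was 0.02 (all genes, 0.00). Without KBM7 siCtrl replicate 2, 1 rose and 1 fell (against 5.79% and 7.18%), with a median of -0.00813. In K562 set 1, 6 rose (13.95%, against 18%) and 13 fell (30.2%, against 18.7%), with a median of -0.04 (all genes, -0.01). Without K562 siCtrl replicate 2, 5 rose and 6 fell in set 1 (against 12.5% and 12.4%), with a median of -0.00813. In K562 set 2, 0 rose (against 1.19%) and 6 fell (13.95%, against 1.25%), with a median of -0.10 (all genes, 0.00). No mitotic gene rose in set 2 even at an unadjusted p under 0.05 in edgeR (0 genes), and DESeq2 and limma-voom called 0. The changes were small: the median size among members called was 0.17 on the log2 scale for those higher in KBM7, 0.19 for those lower in set 1 and 0.18 for those lower in set 2, against 0.38, 0.33 and 0.24 for all genes called in the same direction.

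**Figure D2:**
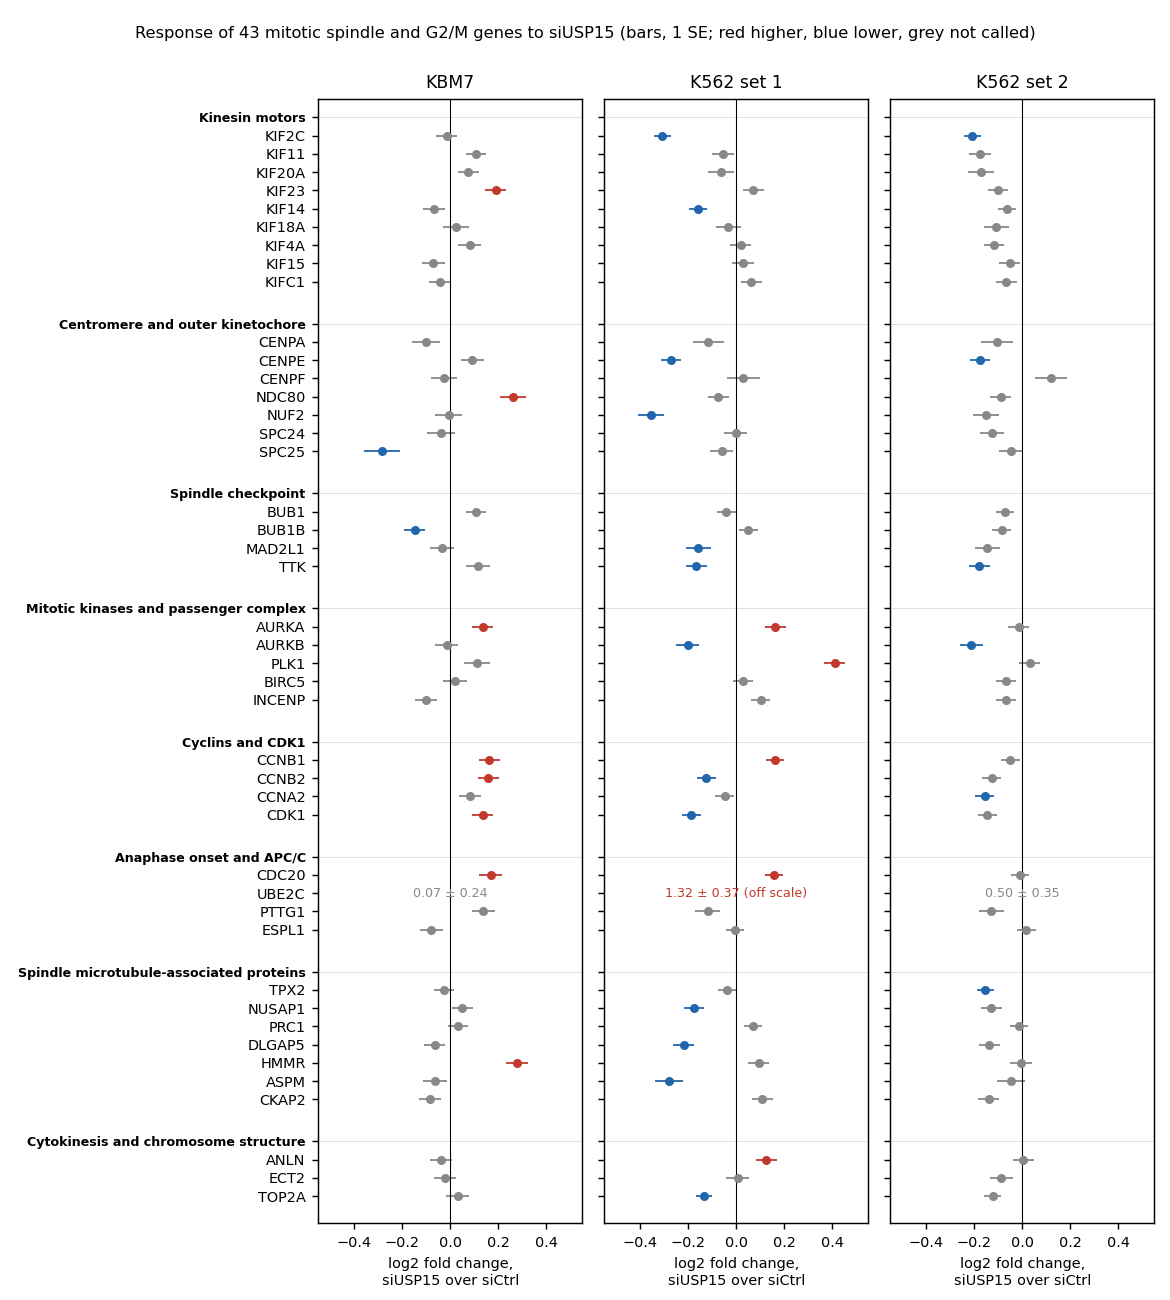
Log2 fold change of siUSP15 over siCtrl (horizontal axis) for the 43 genes by role in KBM7, K562 set 1 and K562 set 2; points are edgeR estimates, bars 1 SE, red called higher and blue called lower at an adjusted p under 0.05. KBM7 has 8 red and 2 blue genes, set 1 has 6 and 13, and set 2 has 0 and 6; UBE2C is written as numbers.

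CDK1, the kinase that drives entry into mitosis (ENSG00000170312, chr10:60778331-60794852), was at 147 and 149 CPM in KBM7 siCtrl and at 161 and 164 CPM with siUSP15. In K562 set 1 it was at 242 and 252 CPM with siCtrl and at 217 and 217 CPM with siUSP15, and in set 2 at 256 and 242 against 228 and 222 CPM. The groups did not overlap in KBM7 or in either set, with siUSP15 above siCtrl in KBM7 and below it in K562. Of all genes tested, 32.9% were above in this way in KBM7 and 13.6% below in both K562 sets. The log2 fold change was 0.13 ± 0.04 in KBM7 (adjusted p = 0.0354), -0.19 ± 0.04 in set 1 (adjusted p = 0.00182) and -0.15 ± 0.04 in set 2 (adjusted p = 0.0757). The KBM7 call was lost without siCtrl replicate 1 or 2 or siUSP15 replicate 2 (adjusted p up to 0.181), in DESeq2 (0.107) and with the replicate number as a block (0.0532).

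CCNB2, a B-type cyclin and partner of CDK1 (ENSG00000157456, chr15:59105078-59125045), followed the same pattern. It was at 114 and 112 CPM against 126 and 125 CPM in KBM7, at 122 and 124 against 112 and 113 CPM in set 1, and at 135 and 131 against 123 and 120 CPM in set 2. The siUSP15 libraries were thus the higher pair in KBM7 and the lower pair in both K562 sets (32.9% and 13.6% of all genes tested). Its log2 fold change was 0.16 ± 0.04 in KBM7 (adjusted p = 0.0180), -0.12 ± 0.04 in set 1 (adjusted p = 0.0224) and -0.13 ± 0.04 in set 2 (adjusted p = 0.112). In KBM7 the call was lost without either siCtrl library (adjusted p up to 0.152) and in DESeq2 (0.0665), and in set 1 it was lost without siCtrl replicate 1 or 2 or siUSP15 replicate 2 (adjusted p up to 0.187), in DESeq2 (0.0776) and without a filter on low counts (0.303).

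CCNB1, the main mitotic cyclin (ENSG00000134057, chr5:69167010-69178245), rose in KBM7 from 238 and 231 to 258 and 267 CPM, and in set 1 from 213 and 214 to 235 and 243 CPM. In set 2 it was at 261 and 256 CPM with siCtrl and at 255 and 244 CPM with siUSP15. Its log2 fold change was 0.16 ± 0.04 in KBM7 (adjusted p = 0.0149; 0.152 without siCtrl replicate 2), 0.16 ± 0.04 in set 1 (adjusted p = 0.00402) and -0.05 ± 0.04 in set 2 (adjusted p = 0.550). CCNA2, the cyclin of S and G2 phase, was at 310 and 302 CPM with siCtrl and at 281 and 269 CPM with siUSP15 in set 2, a fall of -0.16 ± 0.04 (adjusted p = 0.0425). Its log2 fold change was 0.08 ± 0.05 in KBM7 (adjusted p = 0.193) and -0.05 ± 0.04 in set 1 (adjusted p = 0.349). The set 2 call of CCNA2 was lost in 5 of 8 fits that left out 1 library, each of siCtrl replicates 1 to 4 and siUSP15 replicate 4 (adjusted p up to 0.345), and with only the 4 libraries of the set (0.0748).

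Of the 9 kinesins, 1 rose in KBM7, 2 fell in set 1 and 1 fell in set 2. For all genes tested these shares were 13.2%, 18.7% and 1.25%. KIF2C, also called MCAK, depolymerises microtubules at centromeres and corrects wrong attachments (ENSG00000142945, chr1:44739818-44767767). It was at 269 and 267 CPM with siCtrl and 217 and 216 CPM with siUSP15 in set 1, and at 265 and 264 against 229 and 228 CPM in set 2. In both sets the pairs were far apart relative to their own spread, and in KBM7, with 166 and 165 against 166 and 161 CPM, they overlapped. The log2 fold change was -0.31 ± 0.04 in set 1 (adjusted p = 8.93e-06), -0.21 ± 0.04 in set 2 (adjusted p = 0.00581) and -0.02 ± 0.04 in KBM7 (adjusted p = 0.827). KIF2C kept its set 1 call in all 8 fits that left out 1 library. Those without a set 2 library bear on set 1 only through the shared spread and the scaling. The set 2 call was lost without siCtrl replicate 3 or 4 or siUSP15 replicate 4.

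KIF14, a kinesin of late mitosis and cytokinesis, was at 156 and 158 CPM with siCtrl and 142 and 140 CPM with siUSP15 in set 1, and its log2 fold change of -0.16 ± 0.04 (adjusted p = 0.00340) was lost without siCtrl replicate 2 (0.0506) and without a filter on low counts (0.0640). KIF23, which bundles the central spindle for cytokinesis, was at 173 and 169 CPM with siCtrl and 199 and 191 CPM with siUSP15 in KBM7, a log2 fold change of 0.19 ± 0.04 (adjusted p = 0.00743; 0.0930 without siCtrl replicate 2). KIF11, the motor that pushes spindle poles apart, was at 130 and 120 CPM with siCtrl and 110 and 112 CPM with siUSP15 in set 2, a log2 fold change of -0.18 ± 0.05 that did not pass (adjusted p = 0.0540). The groups did not overlap in any of these 3 cases. The same was found for 34.7% (below, set 1), 32.9% (above, KBM7) and 25% (below, set 2) of all genes tested. KIF20A, KIF18A, KIF4A, KIF15 and KIFC1 passed in none of the 3 comparisons, with log2 fold changes from -0.17 to 0.08.

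Among the 7 genes of the centromere and outer kinetochore, the subunits of the NDC80 complex, which grips microtubule ends, moved apart. NDC80 (ENSG00000080986, chr18:2571511-2616635) was at 47.7 and 46.0 CPM with siCtrl and 56.3 and 56.0 CPM with siUSP15 in KBM7, a log2 fold change of 0.26 ± 0.05 (adjusted p = 0.00347; 0.0610 without siCtrl replicate 2). SPC25, another subunit of the same complex, was at 30.8 and 27.5 CPM with siCtrl and 24.5 and 23.4 CPM with siUSP15 in KBM7, a log2 fold change of -0.29 ± 0.08 (adjusted p = 0.0152; 0.186 without siCtrl replicate 1, and 0.0663 in DESeq2). NUF2, the partner of NDC80 in its dimer (ENSG00000143228, chr1:163266576-163355764), was at 49.9 and 51.2 CPM against 51.7 and 48.7 CPM in KBM7. So in KBM7 one subunit was higher, one was lower, and NUF2 and SPC24 had log2 fold changes of -0.01 ± 0.06 and -0.04 ± 0.06. In K562 set 1 NUF2 fell from 59.5 and 58.7 to 43.9 and 48.0 CPM, a log2 fold change of -0.36 ± 0.06 (adjusted p = 1.37e-04), the largest fall of a mitotic gene in the 3 comparisons. In set 2 it was at 60.3 and 55.7 against 52.9 and 51.5 CPM, a log2 fold change of -0.15 ± 0.06 that did not pass (adjusted p = 0.170).

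CENPE, the kinesin-like motor of the kinetochore that brings chromosomes to the spindle equator (ENSG00000138778, chr4:103105806-103198409), fell in both K562 sets. It was at 134 and 137 CPM with siCtrl and 113 and 112 CPM with siUSP15 in set 1, and at 147 and 149 against 126 and 135 CPM in set 2. In KBM7 it was at 96.2 and 93.3 CPM with siCtrl and 98.7 and 103 CPM with siUSP15. The siUSP15 libraries were below siCtrl in both K562 sets and above it in KBM7 (13.6% and 32.9% of all genes tested). The log2 fold change was -0.27 ± 0.04 in set 1 (adjusted p = 1.21e-04), -0.18 ± 0.04 in set 2 (adjusted p = 0.0366) and 0.09 ± 0.05 in KBM7 (adjusted p = 0.169). The set 2 call was lost in 5 of 8 fits that left out 1 library (siCtrl replicates 1 to 4 and siUSP15 replicate 3, adjusted p up to 0.228) and with only the 4 libraries of the set (0.0619). CENPA, the centromeric histone, and CENPF passed in none of the 3 comparisons. CENPF was at 331 and 350 CPM against 343 and 397 CPM in set 2, the widest spread of a pair among the well covered genes there.

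Of the 4 genes of the spindle checkpoint, BUB1B fell in KBM7, MAD2L1 and TTK fell in set 1, and TTK fell in set 2. Of all genes tested, 15.8%, 18.7% and 1.25% fell. TTK, the kinase MPS1 that starts checkpoint signalling at unattached kinetochores (ENSG00000112742, chr6:80003887-80042527), was at 70.2 and 72.3 CPM with siCtrl and 64.8 and 62.4 CPM with siUSP15 in set 1, and at 91.6 and 89.2 against 80.6 and 79.1 CPM in set 2. In KBM7 it was at 86.4 and 79.9 CPM with siCtrl and 89.5 and 90.7 CPM with siUSP15. As with CDK1, siUSP15 was below siCtrl in both sets and above it in KBM7 (13.6% and 32.9% of all genes tested). The log2 fold change was -0.17 ± 0.04 in set 1 (adjusted p = 0.00831), -0.18 ± 0.04 in set 2 (adjusted p = 0.0429) and 0.11 ± 0.05 in KBM7 (adjusted p = 0.113). The set 1 call was lost without siCtrl replicate 2 or siUSP15 replicate 2 (adjusted p up to 0.0986) and without a filter (0.0997). The set 2 call was lost in 6 of 8 fits that left out 1 library, all but those without siUSP15 replicates 1 and 2 (adjusted p up to 0.345), in DESeq2 (0.102) and with only the 4 libraries of the set (0.0529).

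BUB1B, which encodes BUBR1 of the checkpoint complex, was at 200 and 200 CPM with siCtrl and 177 and 184 CPM with siUSP15 in KBM7, a log2 fold change of -0.15 ± 0.04 (adjusted p = 0.0240) that was lost without siCtrl replicate 1 or 2 or siUSP15 replicate 1 (adjusted p up to 0.162) and in DESeq2 (0.0640). Its log2 fold change was 0.05 ± 0.04 in set 1 and -0.09 ± 0.04 in set 2. MAD2L1, which encodes the checkpoint protein MAD2, was at 116 and 128 CPM with siCtrl and 105 and 113 CPM with siUSP15 in set 1, a log2 fold change of -0.16 ± 0.05 (adjusted p = 0.0262) that was lost without siCtrl replicate 2 or siUSP15 replicate 1 (adjusted p up to 0.378), without a filter (0.0801) and in DESeq2 (0.0501). BUB1 passed in none of the 3 comparisons.

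The mitotic kinases differed among themselves. PLK1, which acts from mitotic entry to cytokinesis (ENSG00000166851, chr16:23677656-23690367), was at 150 and 153 CPM with siCtrl and 192 and 208 CPM with siUSP15 in set 1, and this was the largest rise of a well covered mitotic gene. In set 2 it was at 230 and 227 CPM against 238 and 228 CPM, and in KBM7 at 231 and 221 against 257 and 231 CPM. The siCtrl libraries of set 1 were the lowest of the 12, and the siUSP15 libraries of set 1 stayed below every library of set 2. The log2 fold change was 0.41 ± 0.04 in set 1 (adjusted p = 5.20e-06, and called in all 8 fits that left out 1 library), 0.03 ± 0.04 in set 2 (adjusted p = 0.768) and 0.11 ± 0.05 in KBM7 (adjusted p = 0.143).

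AURKA and AURKB, the related kinases of spindle poles and of the chromosomal passenger complex, moved in opposite directions in set 1. AURKA was at 124 and 125 CPM with siCtrl and 138 and 139 CPM with siUSP15, a log2 fold change of 0.16 ± 0.04 (adjusted p = 0.00959; up to 0.0740 without siCtrl replicate 1 or 2). AURKB (ENSG00000178999, chr17:8204733-8210600) was at 50.6 and 52.9 CPM with siCtrl and 44.8 and 45.2 CPM with siUSP15, a log2 fold change of -0.20 ± 0.05 (adjusted p = 0.00371; 0.0673 without siCtrl replicate 2). In set 2, AURKB was at 48.9 and 48.0 against 41.68 and 41.98 CPM, a log2 fold change of -0.21 ± 0.05 (adjusted p = 0.0350) that was lost in 6 of 8 fits without 1 library, all but those without siUSP15 replicates 1 and 2 (adjusted p up to 0.282), and in DESeq2 (0.125). AURKA stood at -0.02 ± 0.04 on the log2 scale in set 2. In KBM7 AURKA rose from 115 and 115 to 125 and 127 CPM (log2 fold change 0.14 ± 0.04, adjusted p = 0.0361), a call lost without siCtrl replicate 1 or 2 or siUSP15 replicate 2 (adjusted p up to 0.182), in DESeq2 (0.134) and with the replicate block (0.0543), while AURKB stood at -0.02 ± 0.05. BIRC5 and INCENP, partners of AURKB in the passenger complex, passed in none of the 3 comparisons, with log2 fold changes from -0.10 to 0.10. INCENP was at 139 and 133 against 128 and 126 CPM in KBM7, at 94.42 and 97.03 against 103 and 103 CPM in set 1, and at 112 and 115 against 106 and 110 CPM in set 2.

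**Figure D3:**
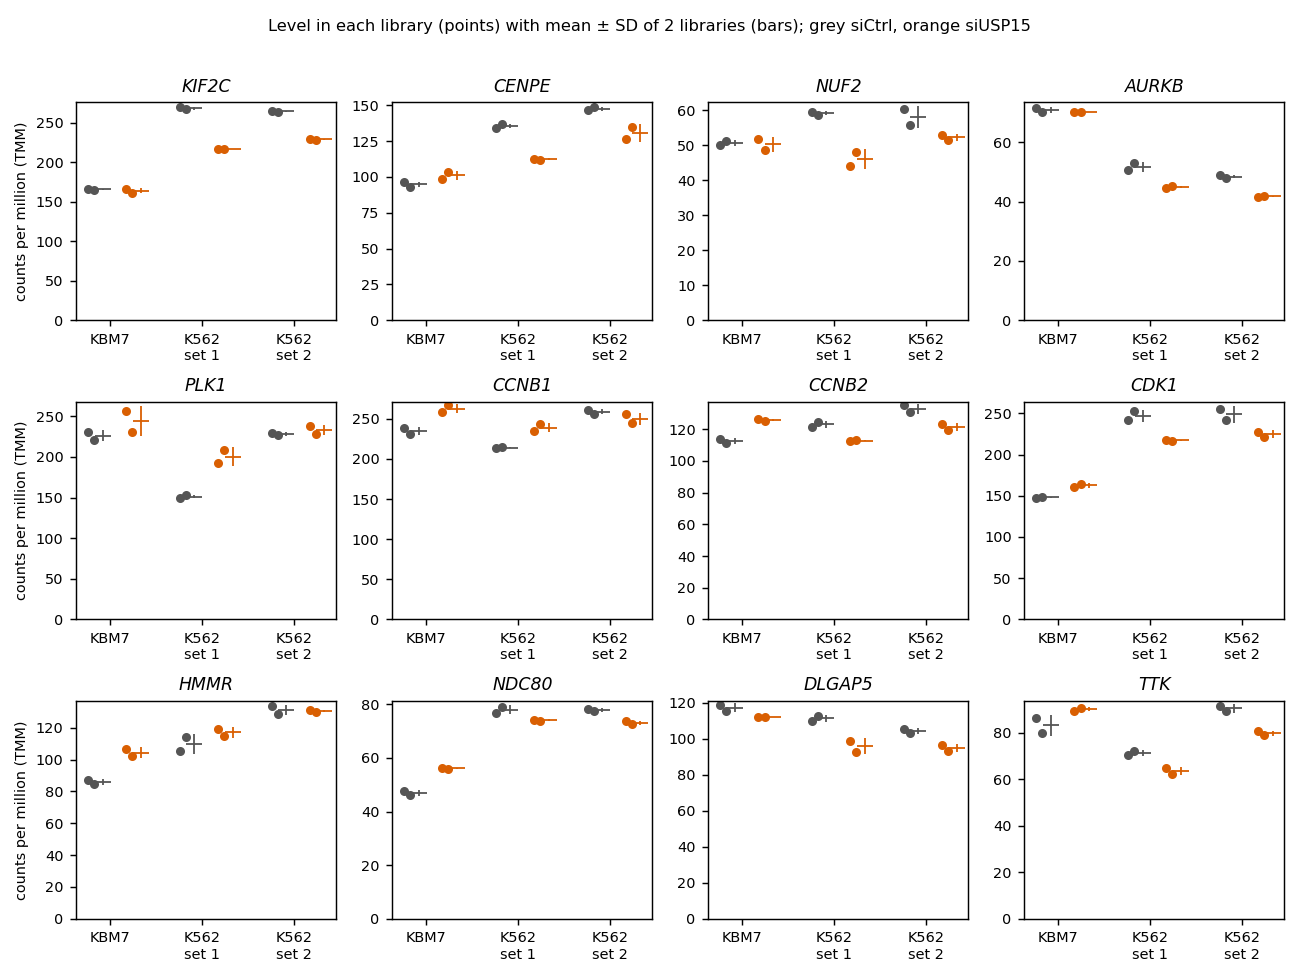
Level in CPM (vertical axis, TMM scaled) of 12 mitotic genes in each library of KBM7, K562 set 1 and K562 set 2; grey points are siCtrl, orange points siUSP15, and bars the mean ± SD of 2 libraries. CDK1 and CCNB2 are higher with siUSP15 in KBM7 and lower in both K562 sets, and PLK1 in set 1 rises from 150 and 153 to 192 and 208 CPM.

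Among the 4 genes of anaphase onset, CDC20, the activator that turns the APC/C on at anaphase, rose in KBM7 and in set 1. It was at 127 and 118 CPM with siCtrl and 138 and 137 CPM with siUSP15 in KBM7, and at 155 and 151 against 168 and 172 CPM in set 1. In set 2 it was at 183 and 187 against 184 and 183 CPM. Its log2 fold change was 0.17 ± 0.05 in KBM7 (adjusted p = 0.0211; 0.222 without siCtrl replicate 2, 0.0531 in DESeq2), 0.16 ± 0.04 in set 1 (adjusted p = 0.00470; 0.0588 without siCtrl replicate 2) and -0.01 ± 0.04 in set 2 (adjusted p = 0.923). UBE2C had 6 and 8 counts with siCtrl and 15 and 36 counts with siUSP15 in set 1. It passed there, at 1.32 ± 0.37 on the log2 scale (adjusted p = 0.0106), and the call was lost without siCtrl replicate 1 or siUSP15 replicate 2 (adjusted p up to 0.137), while DESeq2 gave it no adjusted p. PTTG1, which encodes securin, and ESPL1, which encodes separase, passed in none of the 3 comparisons.

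Of the 7 spindle microtubule-associated proteins, 3 fell in set 1, 1 fell in set 2 and 1 rose in KBM7. For all genes tested these shares were 18.7%, 1.25% and 13.2%. DLGAP5, also called HURP, which stabilises kinetochore fibres, was at 110 and 113 CPM with siCtrl and 99.0 and 92.8 CPM with siUSP15 in set 1, a log2 fold change of -0.22 ± 0.04 (adjusted p = 0.00107) that held in all 8 fits without 1 library. ASPM, a spindle pole protein, was at 220 and 226 CPM with siCtrl and 194 and 174 CPM with siUSP15 in set 1 (log2 fold change -0.28 ± 0.06, adjusted p = 0.00154), and it also held in all 8. In set 2 ASPM was at 235 and 242 CPM against 215 and 247 CPM, where the groups overlapped. NUSAP1 fell in set 1 (log2 fold change -0.18 ± 0.04, adjusted p = 0.00426; 0.101 without siCtrl replicate 2). TPX2, which activates AURKA at the spindle, was at 395 and 386 CPM with siCtrl and 353 and 350 CPM with siUSP15 in set 2, a log2 fold change of -0.15 ± 0.04 (adjusted p = 0.0381) that was lost in 6 of 8 fits without 1 library, all but those without siUSP15 replicates 1 and 2 (adjusted p up to 0.328), and with only the 4 libraries of the set (0.0606).

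HMMR, a microtubule-binding protein of spindle assembly (ENSG00000072571, chr5:163460203-163491945), was the exception of this group. It was at 87.4 and 84.8 CPM with siCtrl and 107 and 102 CPM with siUSP15 in KBM7, a log2 fold change of 0.28 ± 0.05 (adjusted p = 0.00111). Of the 10 mitotic genes called in KBM7, HMMR alone kept its call in each of the 4 fits that left out 1 library. In K562 its log2 fold change was 0.09 ± 0.04 in set 1 (adjusted p = 0.122) and -0.01 ± 0.04 in set 2 (adjusted p = 0.961). PRC1 and CKAP2 passed in none of the 3 comparisons.

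In the last group, TOP2A was at 692 and 717 CPM with siCtrl and 652 and 632 CPM with siUSP15 in set 1, a log2 fold change of -0.13 ± 0.04 (adjusted p = 0.00711) that was lost without siCtrl replicate 2 or siUSP15 replicate 2 (adjusted p up to 0.126) and without a filter (0.0701). In set 2 it was at 740 and 718 against 677 and 661 CPM (log2 fold change -0.12 ± 0.04, adjusted p = 0.0852). ANLN, the scaffold of the contractile ring, rose in set 1 (log2 fold change 0.13 ± 0.04, adjusted p = 0.03004), a call lost without siCtrl replicate 1 or 2 or siUSP15 replicate 1 (adjusted p up to 0.194) and in DESeq2 (0.0537). ECT2 passed in none of the 3 comparisons.

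Many calls changed when 1 library was left out. Such a fit leaves 1 library in a group. Where that group is in the other K562 set, the fit bears on a set's comparison only through the shared spread and the scaling. Whichever siCtrl library was left out, fewer of all genes tested passed too in KBM7, set 1 and set 2. Calls were thus lost among other genes as well, and whether mitotic genes lost more was not tested. Without KBM7 siUSP15 replicate 2, more of all genes tested passed, while CDK1 and AURKA lost their calls. Each of the 8 fits that left out a K562 library kept KIF2C, CENPE, NUF2, PLK1, CCNB1, CDK1, DLGAP5 and ASPM among the calls of set 1, 8 of 19. In set 1, fewer mitotic genes were higher without siCtrl replicate 1, and fewer were lower without siCtrl replicate 2. In set 2, 0 of 6 calls were kept in all 8 fits. Fewer mitotic genes were lower there without any single siCtrl library, and without siUSP15 replicate 3 or 4. In KBM7, leaving out siCtrl replicate 1 left fewer mitotic genes higher and fewer lower, and leaving out siUSP15 replicate 1 left fewer lower.

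Levels were also compared library by library. In 18 of 43 mitotic genes (41.9%), every siUSP15 library was below both siCtrl libraries of its own set in both sets, against 13.6% of all genes tested. These 18 were KIF2C, KIF11, KIF14, CENPA, CENPE, NDC80, NUF2, BUB1, MAD2L1, TTK, AURKB, CCNB2, CCNA2, CDK1, PTTG1, NUSAP1, DLGAP5 and TOP2A. The reverse, every siUSP15 library above both siCtrl libraries of its set, was found for 1 gene, UBE2C with its low counts (2.33%, against 12%). Within set 1 alone, 20 of 43 had both siUSP15 libraries below both siCtrl libraries (46.5%, against 34.7%) and 13 had them above (30.2%, against 33.4%). Within set 2 alone, 32 of 43 had both siUSP15 libraries below both siCtrl libraries (74.4%, against 25%) and 1 had them above (2.33%, against 23.9%). In KBM7, 18 of 43 had both siUSP15 libraries above both siCtrl libraries (41.9%, against 32.9%) and 10 had them below (23.3%, against 33.6%).

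Fitted together with the set as a block, the K562 libraries gave 12 mitotic genes lower (27.9%, against 8.9% of all genes tested) and 2 higher (4.65%, against 6.88%), with a median of -0.06. The 12 lower were KIF2C, KIF14, CENPE, NUF2, MAD2L1, TTK, AURKB, CCNB2, CDK1, NUSAP1, DLGAP5 and TOP2A, from -0.26 ± 0.03 for KIF2C (adjusted p = 0.00161) to -0.11 ± 0.03 for KIF14 (adjusted p = 0.0390). The 2 higher were PLK1 and UBE2C, and both were lost in most of the 8 fits that left out 1 library. KIF2C, CENPE and AURKB were called in all 8 fits. Without siCtrl replicate 2 fewer mitotic genes were lower, and so were fewer of all genes tested. With the replicate number in place of the set, 9 were lower (against 4.443% of all genes tested) and 0 higher (against 3.001%). Without any block for the set, edgeR called 0 genes of 13731 in either direction, although 1447 had an unadjusted p under 0.05, 11 of them mitotic, so the K562 results depend on comparing libraries within their sets. With the set as a block, DESeq2 called 911 genes higher and 1054 lower and limma-voom 925 and 1290.

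**Figure D4:**
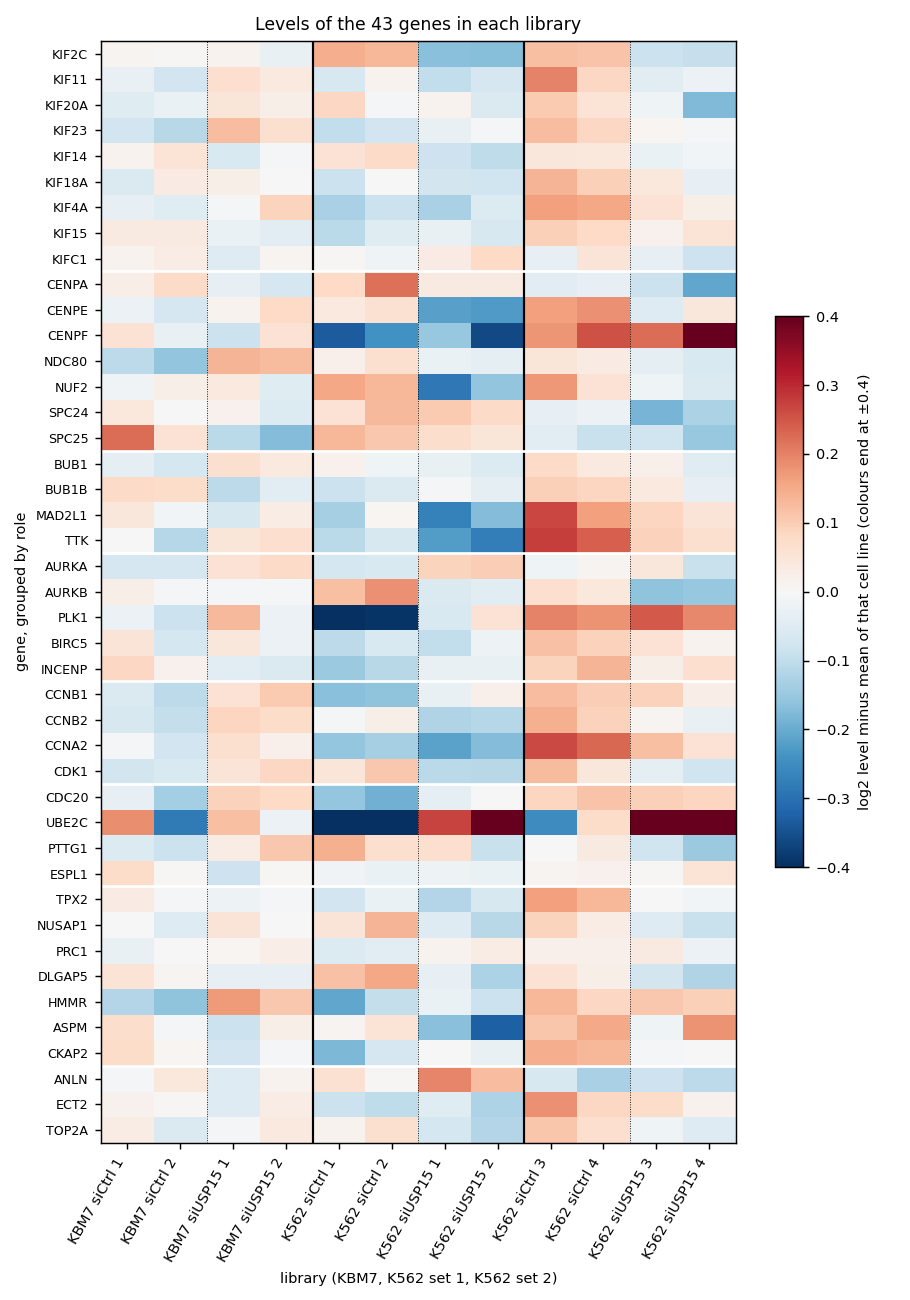
Log2 level of each of the 43 genes (rows, by role) in each of the 12 libraries (columns), minus its mean over the libraries of the same cell line; solid lines part KBM7, K562 set 1 and set 2, dotted lines part siCtrl from siUSP15, and colours end at ±0.4. The rows of PLK1, CCNA2, TTK and CENPF show the difference between the siCtrl libraries of the sets (0.60, 0.39, 0.34 and 0.50 on the log2 scale).

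The sets also differed in mitotic genes without the knockdown. Between the siCtrl libraries, 21 of 43 mitotic genes were higher in set 2 than in set 1 (48.8%, against 27.2% of all genes tested) and 4 were lower (9.30%, against 29.7%), with a median of 0.11 (all genes, -0.02). PLK1 was higher by 0.60 ± 0.04 (adjusted p = 1.86e-08), CENPF by 0.50 ± 0.07 (adjusted p = 1.01e-05), CCNA2 by 0.39 ± 0.04 (adjusted p = 3.60e-07) and TTK by 0.34 ± 0.04 (adjusted p = 6.66e-06). SPC25, CENPA, ANLN and SPC24 were lower, by -0.19 ± 0.05, -0.19 ± 0.07, -0.13 ± 0.04 and -0.12 ± 0.05, and of these 4 only SPC25 kept its call in all 8 fits without 1 library. Whichever siCtrl library was left out, fewer mitotic genes and fewer of all genes tested were lower. This difference and that of the mitochondrial share go with the sets, and their part in the responses was not tested.

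The responses of the sets were compared directly. PLK1 rose by 0.38 ± 0.06 more in set 1 than in set 2 (adjusted p = 0.00179, and called in all 8 fits without 1 library). CKAP2, with 80.1 and 86.5 against 90.9 and 88.8 CPM in set 1 and 100 and 99.5 against 90.5 and 90.6 CPM in set 2, differed by 0.25 ± 0.06 (adjusted p = 0.0191). CCNB1 differed by 0.21 ± 0.05 (adjusted p = 0.0210). These 3 (6.98%, against 6.91%) were the mitotic genes called in this comparison, and 0 had a lower response in set 1 (against 6.08%; 2 at an unadjusted p under 0.05 in edgeR, and 0 called by DESeq2 or limma-voom). CKAP2 and CCNB1 were lost in 4 and 5 of 8 fits without 1 library (adjusted p up to 0.127 and 0.106; siCtrl replicates 1, 3 and 4 and siUSP15 replicate 4 for CKAP2, siCtrl replicates 1, 2 and 3 and siUSP15 replicates 2 and 4 for CCNB1). CDC20 and INCENP, next by p, differed by 0.17 ± 0.05 (adjusted p = 0.0542) and 0.17 ± 0.06 (adjusted p = 0.0654). Across 42 mitotic genes without UBE2C, the log2 fold changes of the sets, which share no library, had a Pearson correlation of 0.635, against 0.280 across all 13731 genes tested. This is a description across genes, which are not independent replicates.

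The difference between the lines was tested over all 12 libraries. Against set 1, 9 mitotic genes responded more positively in KBM7 (20.9%, against 11.3% of all genes tested) and 4 more negatively (9.30%, against 13.6%). Against set 2, 17 responded more positively in KBM7 (39.5%, against 6.29%) and 0 more negatively (against 7.2%; 1 at an unadjusted p under 0.05 in edgeR, and 0 called by DESeq2 or limma-voom). Both comparisons share the KBM7 libraries, so they are not independent of each other. In each, leaving out a library of the other K562 set acts only through the shared spread and the scaling. The 5 genes with the lowest p against set 1 were CENPE (difference 0.36 ± 0.07, adjusted p = 2.51e-04), CDK1 (0.32 ± 0.06, adjusted p = 5.31e-04), KIF2C (0.29 ± 0.06, adjusted p = 6.02e-04), NDC80 (0.33 ± 0.07, adjusted p = 0.00101) and CCNB2 (0.28 ± 0.06, adjusted p = 0.00205). Against set 2 they were NDC80 (0.37 ± 0.07, adjusted p = 7.34e-04), KIF23 (0.31 ± 0.06, adjusted p = 0.00181), CCNB2 (0.30 ± 0.06, adjusted p = 0.00186), CDK1 (0.30 ± 0.06, adjusted p = 0.00206) and KIF11 (0.30 ± 0.07, adjusted p = 0.00349). CENPE, NDC80, TTK, CCNB2 and CDK1 kept their calls against both sets in each of the 12 fits that left out 1 library, and 8 of 13 calls against set 1 and 8 of 17 against set 2 did so. Against set 2, fewer mitotic genes responded more positively without KBM7 siCtrl replicate 2, K562 siCtrl replicate 3 or K562 siUSP15 replicate 4. Fewer of all genes tested did so in the same fits. Against set 1, fewer mitotic genes were more negative in KBM7 without siCtrl replicate 1 of either line. The same held without siUSP15 replicate 1 of KBM7 or 2 of K562. Fewer of all genes tested were more negative in these fits too. PLK1 went the other way against set 1, with a difference of -0.30 ± 0.07 (adjusted p = 0.00383).

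**Figure D5:**
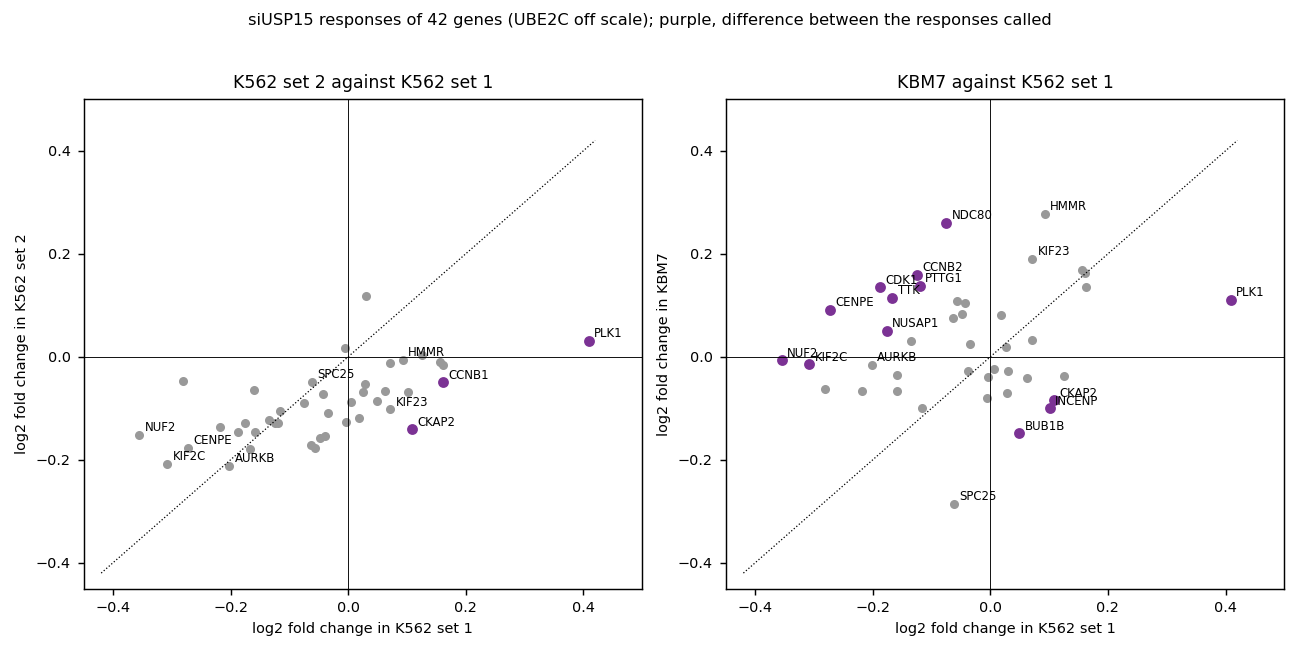
Log2 fold changes with siUSP15 of 42 mitotic genes in K562 set 2 (left) and KBM7 (right) on the vertical axis against K562 set 1 on the horizontal axis; the dotted line marks equal responses and purple points are genes whose difference between the responses was called. PLK1, CCNB1 and CKAP2 are purple on the left, and CDK1, CCNB2, CENPE, NDC80 and TTK lie at the upper left of the right panel, above 0 in KBM7 and below 0 in set 1.

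Other genes of the pathway were counted from lists. Of 37 further kinesins and spindle proteins, 5 rose and 7 fell in KBM7 (13.5% and 18.9%, against 13.2% and 15.8% of all genes tested), 2 rose and 12 fell in set 1 (5.41% and 32.4%, against 18% and 18.7%), and 0 rose and 3 fell in set 2 (8.11% lower, against 1.25%). In both K562 sets FAM83D, a spindle protein that carries casein kinase 1, fell, with log2 fold changes of -0.55 ± 0.05 in set 1 (adjusted p = 7.69e-07) and -0.24 ± 0.06 in set 2 (adjusted p = 0.0428). DEPDC1 fell too, by -0.33 ± 0.05 (adjusted p = 9.79e-05) and -0.24 ± 0.05 (adjusted p = 0.0281). SKA3, of the SKA complex at the outer kinetochore, rose in set 1 (0.38 ± 0.06, adjusted p = 9.02e-05). STMN1, which encodes the microtubule destabiliser stathmin, fell in KBM7 (-0.17 ± 0.04, adjusted p = 0.0115). CEP55, a midbody protein, rose in KBM7 (0.30 ± 0.05, adjusted p = 5.26e-04). NEK2, a centrosomal kinase, rose in KBM7 (0.29 ± 0.06, adjusted p = 0.00466) and fell in set 2 (-0.21 ± 0.05, adjusted p = 0.0268).

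Of 34 further centromere and kinetochore proteins, 5 rose and 5 fell in KBM7 (14.7% each, near the 13.2% and 15.8% of all genes), 10 rose and 6 fell in set 1 (29.4% and 17.6%, against 18% and 18.7%), and 0 rose and 1 fell in set 2 (2.94% lower, against 1.25%). CENPH, of the inner kinetochore, rose in KBM7 (0.32 ± 0.07, adjusted p = 0.00388) and fell in set 1 (-0.34 ± 0.05, adjusted p = 6.40e-05) and set 2 (-0.19 ± 0.05, adjusted p = 0.0483). KNTC1, a subunit of the RZZ complex, rose in KBM7 (0.21 ± 0.04, adjusted p = 0.00383) and fell in set 1 (-0.35 ± 0.04, adjusted p = 1.57e-05). ZW10, of the same complex, rose in KBM7 (0.27 ± 0.06, adjusted p = 0.00402), and MAD1L1, which encodes the checkpoint protein MAD1, rose in set 1 (0.41 ± 0.06, adjusted p = 7.25e-05). Of 19 condensin and cohesin genes, 1 rose and 5 fell in KBM7 (5.26% and 26.3%, against 13.2% and 15.8%). In set 1, 2 rose and 2 fell (10.5% each, against 18% and 18.7%), and 0 passed in set 2 (against 1.19% and 1.25%). Of 17 APC/C genes, 2 rose and 2 fell in KBM7 (11.8% each, near the 13.2% and 15.8% of all genes). In set 1, 4 rose (23.5%, against 18%) and 0 fell (against 18.7%), and 0 passed in set 2 (against 1.19% and 1.25%). At an unadjusted p under 0.05 in edgeR, set 2 had 1 condensin or cohesin gene higher and 4 lower and 1 APC/C gene higher and 1 lower, and DESeq2 and limma-voom called 0 of either list.

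Of the 17 genes of the G2/M switch, 3 rose and 2 fell in KBM7 (17.6% and 11.8%, against 13.2% and 15.8%), 2 rose and 2 fell in set 1 (12.5% each of 16 tested, against 18% and 18.7%), and 0 passed in set 2 (unadjusted, 1 higher and 4 lower). BORA, the cofactor with which AURKA activates PLK1, rose in KBM7 (0.46 ± 0.07, adjusted p = 3.38e-04), and CKS2, a small CDK-binding subunit, fell there (-0.31 ± 0.04, adjusted p = 3.67e-04). CDC25C, the phosphatase that activates CDK1, fell in set 1 (-0.42 ± 0.08, adjusted p = 8.02e-04), and WEE1, the kinase that opposes it, rose there (0.19 ± 0.04, adjusted p = 0.00153). Among 22 regulators of the DREAM, MuvB and FOXM1 programme, 2 rose and 5 fell in KBM7 (9.09% and 22.7%, against 13.2% and 15.8%), 10 rose and 2 fell in set 1 (45.5% and 9.09%, against 18% and 18.7%), and 0 passed in set 2 (unadjusted, 3 higher and 1 lower). DESeq2 and limma-voom also called 0 genes of these 2 lists in set 2. TFDP2, a partner of E2F factors, had opposite signs in the lines, at -0.63 ± 0.06 in KBM7 (adjusted p = 2.90e-05) and 0.57 ± 0.05 in set 1 (adjusted p = 6.16e-07). NFYA, a subunit of NF-Y, rose in set 1 (0.43 ± 0.05, adjusted p = 4.65e-06), and RBL1, which encodes the pocket protein p107, rose in KBM7 (0.41 ± 0.05, adjusted p = 9.00e-05). Among the E2F factors themselves, E2F5 fell in KBM7 (-0.48 ± 0.05, adjusted p = 5.40e-05) and E2F4 rose in set 1 (0.43 ± 0.05, adjusted p = 6.05e-06).

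Of 30 G1/S and licensing genes, 3 rose and 3 fell in KBM7 (10% each, against 13.2% and 15.8%), 9 rose and 5 fell in set 1 (30% and 16.7%, against 18% and 18.7%), and 0 rose and 1 fell in set 2 (3.33% lower, against 1.25%). Of the p53 and p21 pathway, 3 rose and 8 fell in KBM7 (15% and 40% of 20 tested, against 13.2% and 15.8%). In set 1, 0 rose (against 18%) and 13 fell (68.4% of 19 tested, against 18.7%). In set 2, 0 rose (against 1.19%) and 3 fell (15.8%, against 1.25%). GADD45A, a stress gene that restrains G2/M, fell in set 1 (-0.77 ± 0.05, adjusted p = 3.05e-08) and set 2 (-0.26 ± 0.05, adjusted p = 0.0179), and CDKN1A, which encodes p21, rose in KBM7 (0.50 ± 0.05, adjusted p = 4.01e-05). GDF15, a secreted stress cytokine, fell in KBM7 (-2.40 ± 0.17, adjusted p = 2.16e-06) and in set 1 (-0.75 ± 0.06, adjusted p = 3.02e-07). Of the 13 mitochondrially encoded genes, 0 passed in KBM7 (0 also at an unadjusted p under 0.05 and in DESeq2 and limma-voom). In set 1, 8 rose (61.5%, against 18%), and 1 rose in set 2 (7.69%, against 1.19%).

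The CHR hexamer was found in promoters of genes that rose and of genes that fell. In KBM7 the CHR hexamer was in the windows of 6 of 7 members that rose and 2 of 2 that fell, and of 20 of 29 that did not pass. In set 1 it was in 3 of 4 that rose, 9 of 12 that fell and 16 of 22 that did not pass, counting genes with a window. In set 2 it was in 0 of 4 that fell (KIF2C, CENPE, AURKB and CCNA2) and 28 of 34 that did not pass. The variant TTTAAA was in 4 of 7 that rose and 0 of 2 that fell in KBM7. In set 1 the variant was in 2 of 4 that rose and 7 of 12 that fell. In set 2 the variant was in 2 of 4 that fell (KIF2C and CENPE) and 12 of 34 that did not pass. CCAAT was in 6 of 7 and 1 of 2 in KBM7, 3 of 4 and 9 of 12 in set 1, and 2 of 4 in set 2. These counts are descriptions, with no test.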

How the data were processed

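RNA-seq counts of 12 libraries (2 siCtrl and 2 siUSP15 of KBM7, 4 and 4 of K562) were analysed, from RNA taken 72 h after transfection. The authors deposited raw counts per gene and library for each cell line, from reads aligned to hg38. The submitters' notes name TopHat2 2.1.0, HTSeq, edgeR and limma. The authors' deposited log2 values were read for their unit only, and their fold changes and p-values were not used. The counts were filtered (filterByExpr by line and siRNA), scaled by TMM and tested in edgeR 4.0.16 (R 4.3.3) by quasi-likelihood (2-sided). Calls were made under 0.05 after Benjamini-Hochberg adjustment over all 14980 (KBM7), 13731 (K562) or 16639 (12 libraries) genes tested. SE is the log2 fold change over the root of F. The K562 sets were fitted as groups, with a shared spread. CPM are counts relative to TMM-scaled library totals, and CPM per kb divides by GENCODE 44 exon length.

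Replicates are not said to be separate cultures, so the p-values cover only variation among these libraries, which may be technical. Same-numbered libraries were checked for pairing: deviations correlated at 0.000978 in KBM7 and, within sets, at 0.00697 and 0.0865, so the numbers do not pair them. Over all of K562 the correlations were 0.550 to 0.695, which holds the difference of the sets. No libraries were copies. The edgeR fits were run on simulated counts, in which large changes were recovered and small ones, above all small differences between the lines, were missed more often. The limits first set for this check were not met for the differences between the lines (the share recovered against both sets, the fitted size against set 2), and they were relaxed after that was seen, with the fits unchanged. Differences of the size given here between the lines lie in the range that is often missed. The 43 genes, the gene lists and the sets were chosen with earlier results of these data known. Values in every library are given for the 10 members with the lowest p per comparison, the lowest p of each of 8 roles and the 5 lowest of each difference, and for others named beside them. Genes named from the lists are among the 3 with the lowest p of their list and comparison; not every such gene is named. Python 3.11.15 and matplotlib 3.10.9 were used. Alternatives were RLE factors, no filter, limma-voom 3.58.1, DESeq2 1.42.0, each library left out, a replicate block, 1 set alone, no set block and a promoter window from 150 bases before the start. Promoters came from RefSeq.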

Additional observations from a re-analysis of the deposited data

Results flagged for a closer look

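In 34 cases the response differed between groups by a test of the difference itself (edgeR's interaction contrast, adjusted p under 0.05), on the log2 scale.

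Between the K562 sets, as set 1 minus set 2, the differences were 0.38 for PLK1, 0.21 for CCNB1, 0.25 for CKAP2 and -0.32 for USP15. Between KBM7 and K562 set 1, as KBM7 minus set 1, they were positive for the motors and kinetochore genes KIF2C (0.29), CENPE (0.36), NDC80 (0.33) and NUF2 (0.34), for the checkpoint kinase TTK (0.27), for CCNB2 (0.28) and CDK1 (0.32), for PTTG1 (0.25) and for NUSAP1 (0.22). They were negative for BUB1B (-0.20), PLK1 (-0.30), INCENP (-0.21) and CKAP2 (-0.20).

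Between KBM7 and K562 set 2, as KBM7 minus set 2, all 17 called differences were positive. Among kinesins they were 0.21 for KIF2C, 0.30 for KIF11, 0.26 for KIF20A, 0.31 for KIF23 and 0.21 for KIF4A. At the kinetochore and checkpoint they were 0.28 for CENPE, 0.37 for NDC80, 0.19 for BUB1 and 0.31 for TTK. The whole group of cyclins and CDK1 was called, with 0.23 for CCNB1, 0.30 for CCNB2, 0.26 for CCNA2 and 0.30 for CDK1. The others were CDC20 (0.19), PTTG1 (0.28), NUSAP1 (0.20) and HMMR (0.30). Erythroid and granulocyte markers also moved in KBM7, and their part in these differences was not tested. Left out 1 library at a time, 5 of the 13 differences against set 1 and 9 of the 17 against set 2 were lost in at least 1 fit.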

How the results depend on the processing

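Leaving out 1 library at a time, the lowest and highest counts of members higher and lower were 1 to 10 and 0 to 2 in KBM7, 3 to 6 and 6 to 13 in set 1, 0 and 0 to 7 in set 2, and 0 to 3 and 3 to 13 in both sets together; for the set difference 1 to 5 and 0 to 1, for siCtrl 16 to 21 and 1 to 5, for KBM7 minus set 1 7 to 11 and 1 to 6, and for KBM7 minus set 2 8 to 18 and 0 to 1. The member medians ran from -0.00813 to 0.0314, -0.0389 to -0.00813, -0.116 to -0.0866, -0.0893 to -0.0450, 0.0422 to 0.0938, 0.0989 to 0.136, 0.0351 to 0.0873 and 0.122 to 0.189 in the same order. The share of all genes tested that passed moved between these fits as well.

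The share of all genes tested in the same fit and direction follows each count in brackets. DESeq2 gave 4 higher (7.16%) and 0 lower (9.87%) in KBM7. It gave 1 higher in both K562 sets together (6.6%) and 1 lower between the siCtrl libraries (22.75%). Without a filter on low counts, 9 were higher (10.6%) and 8 lower (7.45%) in set 1, and 10 were lower in set 2 (0.974%). In that fit 7 differed between the sets (5.40% higher and 2.725% lower), and 1 was lower between the siCtrl libraries (13.6%). The medians were 0.0000114 in set 1, 0.13 for the set difference and 0.14 for siCtrl. The replicate block gave 11 lower in set 2 (1.981%) and 0 higher in both sets together (3.001%). For the set difference it gave 5 higher (8.747%) and 1 lower (8.23%). With only its own 4 libraries, set 2 had 2 lower (0.969%). Without a set block, 0 were higher (0%) and 0 lower (0%) in both sets together. RLE factors and limma-voom moved none of the counts of members by over 1.5 times, and the shorter promoter window moved none of the motif counts by that much. Of 670 values for named genes under alternatives, 578 kept their side of the threshold, 77 lost it, 15 gained it and 0 reversed. Causes of these shifts were not tested.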
